A study of Homo sapiens with 4 samples.

Results

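The transcripts of 55 genes of the actin cytoskeleton and of the program of serum response factor (SRF) were followed in the human pancreatic ductal carcinoma line PANC-1, with and without knockdown of SIRT1, an NAD-dependent deacetylase. The genes came from a list of 4 actins, 7 myosin chains with the kinase of the light chains among them, 10 tropomyosins, calponins and related proteins, 17 crosslinking and adhesion proteins, and 17 regulators, and all 55 were found by symbol among the 16878 genes measured. The list was chosen from knowledge of the pathway with results of this same comparison already known, so the differences given for these genes are a description of them, and their calls support nothing about the group. RNA-seq had been made of 2 libraries of cells transfected with a control (Control) and 2 libraries of cells given a small interfering RNA (siRNA) that targets SIRT1 (siSIRT1), each taken 48 h after transfection. Both groups were the same untreated line apart from the transfection. For siRNA knockdown the study used the single most efficient sequence of those it tried. In other experiments it knocked SIRT1 down with short hairpin RNAs, which were not used for these libraries. Values are FPKM, fragments scaled to transcript length and to the mapped fragments of a library, and differences are log2 fold changes of siSIRT1 against Control on log2(FPKM + 1), with the standard error (SE) of a limma fit over all genes tested.

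Actin monomers polymerize into filaments that tropomyosins coat, crosslinkers bundle, and nonmuscle myosin pulls on once its regulatory light chains are phosphorylated. Monomeric actin also holds the coactivator MKL1 (MRTF-A) in the cytoplasm. When polymerization draws monomers down, MKL1 is released, enters the nucleus and joins SRF on the CArG box, the SRF binding site found before many actin, calponin and SRF genes. In epithelial tumor cells the same proteins form cortex, stress fibers and focal adhesions, the sites where filaments are tied to integrins.

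The CArG box was looked for in RefSeq promoter windows (build GRCh38.p14) of 300 bases, from 250 before to 50 after an annotated start, with the sequence read on both strands of its palindromic consensus. Of the 55 genes, 51 had at least 1 window, and ACTB, MYL9, TAGLN and FSCN1 had none. An exact box lay in a window of 11 of the 51 genes (21.6%), against 438 of all 27305 genes with a window (1.60%). Counted by window, it was 13 of 97 (13.4%) against 454 of 35116 (1.29%). The list was chosen in part as the program of SRF, so a larger share than over all genes came with that choice and is no result. The 6 windows printed here, with each box in capitals, are those to set beside the results that follow: SRF itself with 2 boxes, 3 called higher after knockdown (ACTG1, CNN2 and TPM4), the member that fell furthest (FHL2), and one with 2 boxes that was not called (ACTG2).
SRF (chr6:43171019-43171318, plus strand): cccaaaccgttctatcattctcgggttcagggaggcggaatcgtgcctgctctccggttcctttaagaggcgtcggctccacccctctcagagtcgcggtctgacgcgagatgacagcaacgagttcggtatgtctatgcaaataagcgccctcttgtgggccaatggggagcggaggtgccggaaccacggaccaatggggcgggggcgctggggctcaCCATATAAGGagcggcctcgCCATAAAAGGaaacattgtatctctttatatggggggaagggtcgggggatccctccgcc
ACTG1 (chr17:81512750-81513049, minus strand): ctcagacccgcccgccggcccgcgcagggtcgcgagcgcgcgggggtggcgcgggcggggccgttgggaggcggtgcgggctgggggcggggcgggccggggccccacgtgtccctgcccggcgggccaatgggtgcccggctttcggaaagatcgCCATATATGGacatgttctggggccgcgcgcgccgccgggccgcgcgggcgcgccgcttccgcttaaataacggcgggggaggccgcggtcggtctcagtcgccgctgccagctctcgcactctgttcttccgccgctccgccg
CNN2 (chr19:1026358-1026657, plus strand): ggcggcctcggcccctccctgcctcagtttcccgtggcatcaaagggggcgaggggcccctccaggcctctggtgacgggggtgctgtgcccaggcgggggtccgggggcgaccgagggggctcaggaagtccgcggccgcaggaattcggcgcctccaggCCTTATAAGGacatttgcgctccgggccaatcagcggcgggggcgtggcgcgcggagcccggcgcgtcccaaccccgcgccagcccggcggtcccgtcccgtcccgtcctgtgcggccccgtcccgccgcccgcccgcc
TPM4 (chr19:16067288-16067587, plus strand): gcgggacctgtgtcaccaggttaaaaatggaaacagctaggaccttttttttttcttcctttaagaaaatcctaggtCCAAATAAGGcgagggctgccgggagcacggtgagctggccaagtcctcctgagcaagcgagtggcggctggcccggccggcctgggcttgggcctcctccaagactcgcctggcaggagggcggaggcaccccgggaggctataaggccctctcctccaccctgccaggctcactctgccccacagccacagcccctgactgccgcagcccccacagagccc
FHL2 (chr2:105438464-105438763, minus strand): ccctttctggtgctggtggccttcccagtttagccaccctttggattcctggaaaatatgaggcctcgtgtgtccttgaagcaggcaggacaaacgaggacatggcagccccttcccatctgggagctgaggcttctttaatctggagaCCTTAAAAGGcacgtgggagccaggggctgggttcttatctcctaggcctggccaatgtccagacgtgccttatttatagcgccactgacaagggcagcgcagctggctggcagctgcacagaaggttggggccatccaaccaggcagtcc
ACTG2 (chr2:73892758-73893057, plus strand): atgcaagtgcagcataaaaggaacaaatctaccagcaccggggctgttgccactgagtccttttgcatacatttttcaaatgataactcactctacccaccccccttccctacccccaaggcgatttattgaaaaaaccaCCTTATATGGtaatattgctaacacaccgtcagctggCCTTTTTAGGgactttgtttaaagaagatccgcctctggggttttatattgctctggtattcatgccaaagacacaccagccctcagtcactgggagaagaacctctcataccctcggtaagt

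The box began 94 bases before the start in ACTG1, 89 before in CNN2, 173 before in TPM4, and 101 before in this FHL2 window. In SRF the boxes began 30 and 10 bases before the start, and in ACTG2 they began 110 and 73 bases before it. The other genes with an exact box were FLNA, MYLK, ACTN1, FHL1 and ROCK2. FHL2 also had a box before a second, distant start (59 bases before it), and another of its windows with a box overlapped the one printed. A match of letters is a description of the window and not a measured binding site.

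SIRT1 itself was at 10.46 and 10.25 FPKM in Control, against 1.80 and 2.05 FPKM in siSIRT1, 18.6% of the Control mean. It fell by 1.96 on the log2 scale (SE 0.11, limma adjusted p = 1.33e-05). Library depths, estimated from the steps of low values, were 8670000 to 9180000 reads. The keratins KRT7, KRT8, KRT18 and KRT19, looked up to check the ductal label, all reached 1 FPKM (3965 to 5056 FPKM in sum). They were uneven: KRT8 was at 2164 to 2745 FPKM, KRT18 at 1484 to 1914 and KRT19 at 313 to 394. KRT7 was low, at 2.89 to 4.04 FPKM. Defining markers of fibroblasts (PDGFRB, DCN and LUM, at most 0.14 FPKM in sum) and of endothelial cells (PECAM1, CDH5 and VWF, each under 1 FPKM) were near 0, and among smooth muscle markers DES and LMOD1 stayed under 1 FPKM, MYH11 was at 1.35 to 1.54, and SMTN, smoothelin, was at 24.11 and 23.47 in Control, against 45.32 and 42.20 in siSIRT1. Of the immune markers, PTPRC was at 0.97 to 1.29 FPKM, and CD68 was at 62.96 and 60.77 in Control, against 42.34 and 39.09 in siSIRT1. In bulk RNA, fewer cells with a transcript and less of it per cell cannot be told apart. The labels do not say that the 2 libraries of a group came from separate cultures. Every p-value therefore rests on the spread between these libraries, which limma estimates for a gene in part from all genes tested. An exact permutation test of 2 against 2 cannot go below p = 0.333.

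**Figure D1:**
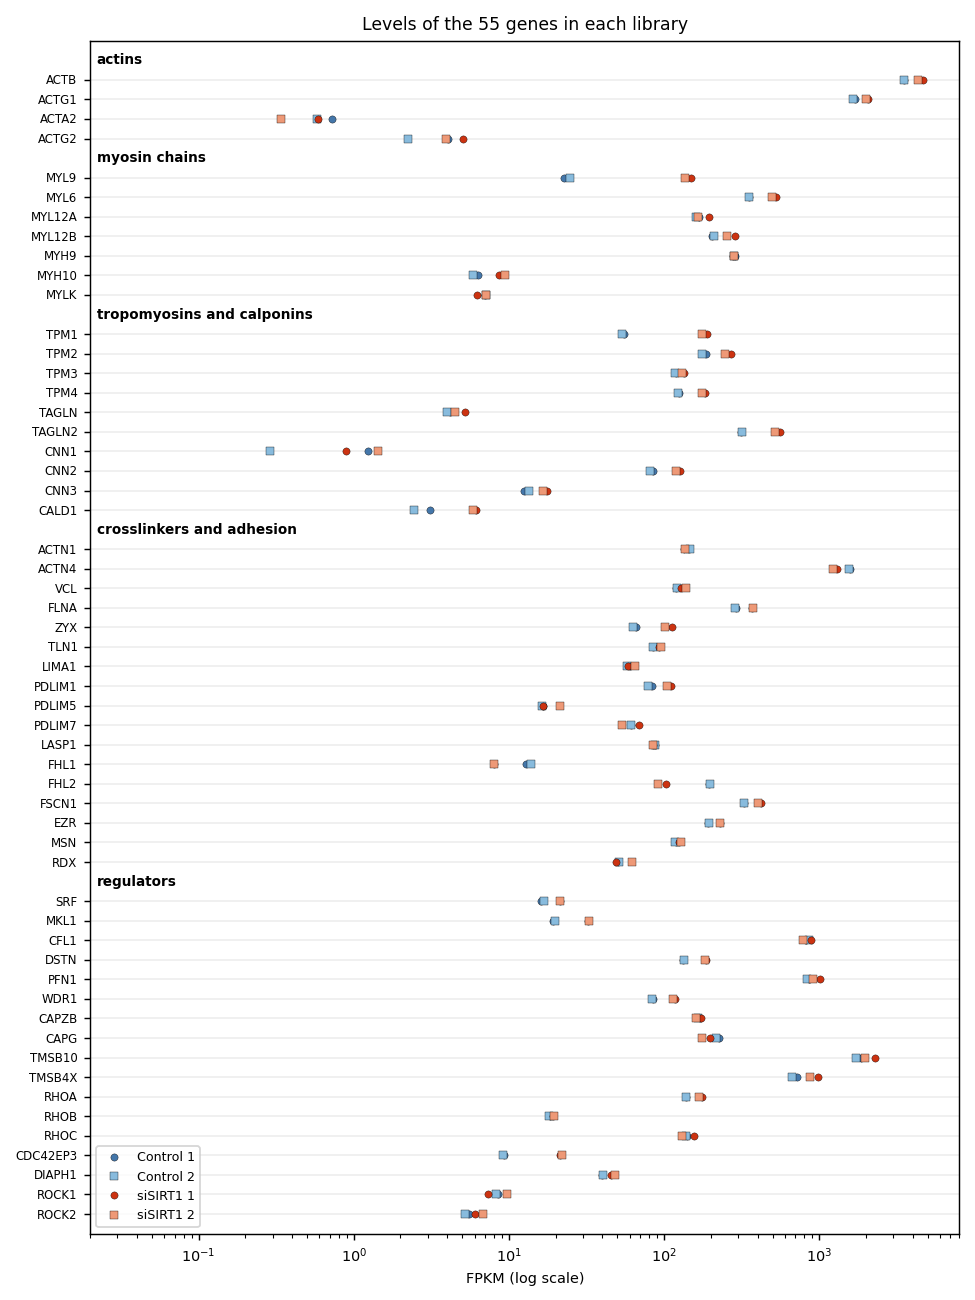
FPKM of each of the 55 genes in each of the 4 libraries (log axis), grouped by role. Circles are replicate 1 and squares replicate 2, blue for Control and red for siSIRT1. MYL9 and TPM1 show the widest gaps between the groups, ACTA2 and CNN1 sit near or under 1 FPKM, and FHL2 and FHL1 lie to the left in siSIRT1.

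The members were abundant. In Control, 7 of the 55 were among the 50 most abundant genes of all and 32 among the 1000 most abundant, and together they made up 3.96% and 3.93% of all FPKM. In siSIRT1 that share was 4.54% and 4.43%. By group, the summed level of the tropomyosins and calponins went from 887 to 904 FPKM in Control to 1398 to 1488 in siSIRT1, whereas the crosslinkers and adhesion proteins summed to 3448 to 3500 FPKM in Control, against 3319 to 3420 in siSIRT1. The largest part of that second sum was ACTN4, at 1588 and 1546 FPKM in Control, against 1305 and 1226 in siSIRT1. Of the 17 crosslinkers and adhesion proteins, 11 had a log2 fold change above 0 and 6 below.

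The filter on low values, a mean of 1 FPKM across the libraries, was passed by 53 members, and ACTA2 and CNN1 were not tested. At an adjusted p under 0.05, 26 members were called higher in siSIRT1, 4 lower, and 23 were not called. Over all 12191 genes tested, 37.1% were called, 24.0% higher and 13.1% lower. Called differences of at least 0.5 on the log2 scale numbered 12 higher and 2 lower among the members (1061 and 800 among all genes), and of at least 1, 3 higher (MYL9, TPM1 and CDC42EP3) and 1 lower (FHL2), against 137 higher and 171 lower among all genes. The median log2 fold change was 0.24 over the members and 0.07 over all genes tested. Values of the groups did not overlap in 43 of the 53, and in 69.0% of all genes tested. Under another scaling the balance over all genes moved, from 64.8% of calls higher with FPKM as deposited to 50.2% with median-of-ratios scaling, while the members then counted 22 higher and 5 lower.

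**Figure D2:**
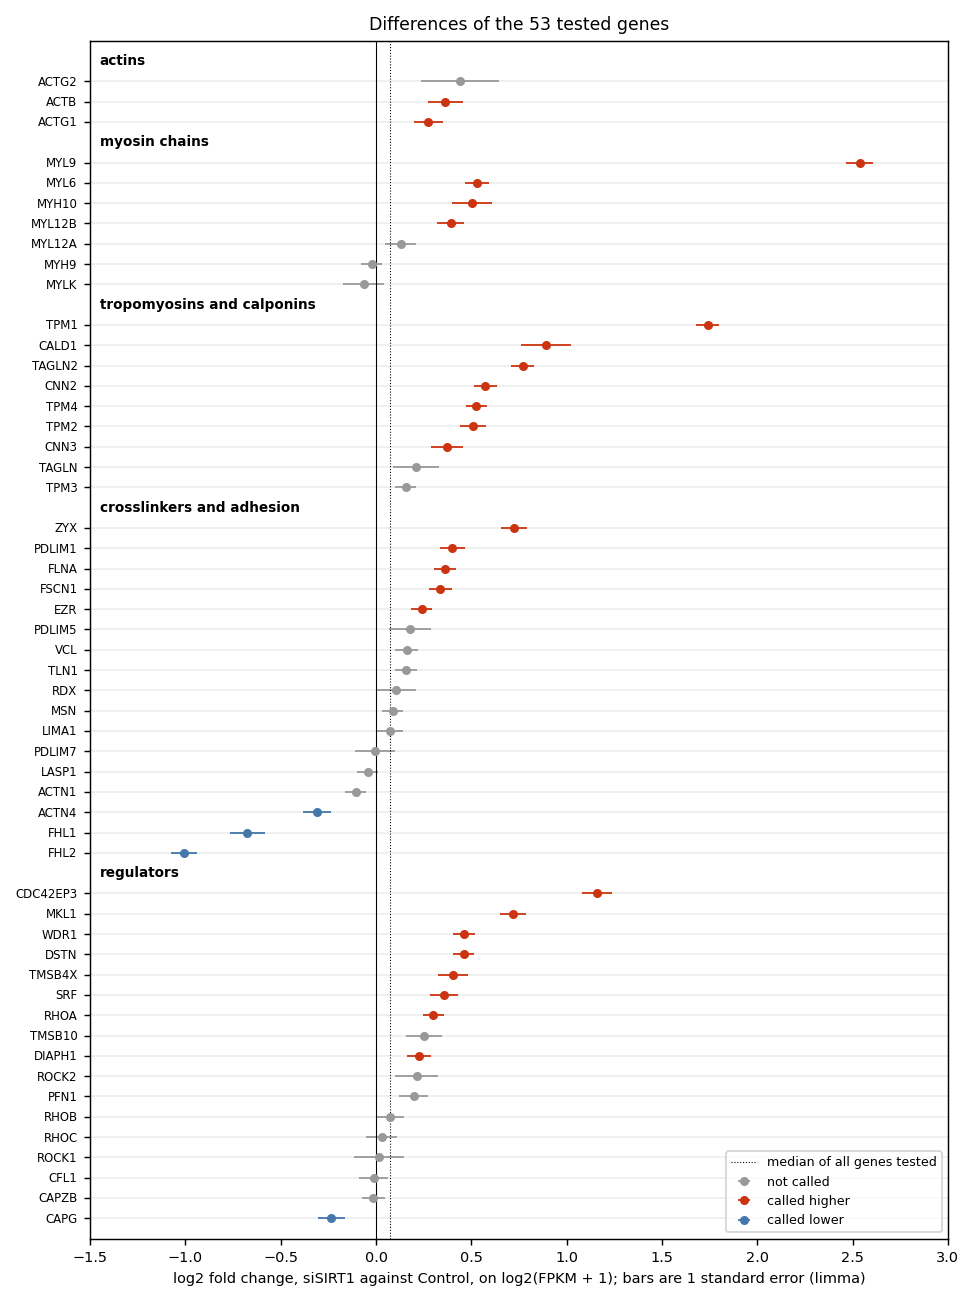
Log2 fold change of the 53 tested genes, siSIRT1 against Control on log2(FPKM + 1), ordered within each group. Bars are 1 standard error of the limma fit, red and blue points were called higher and lower, grey points were not called, and the dotted line is the median of all genes tested (0.07). All 9 tested tropomyosins and calponins lie above 0, and the crosslinkers spread from -1.01 for FHL2 to 0.72 for ZYX.

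Both cytoplasmic actins, the building blocks of filaments in nonmuscle cells, were higher in siSIRT1. Transcripts of the smooth muscle actins were low, at 2.24 to 5.07 FPKM for ACTG2 and 0.34 to 0.72 for ACTA2. ACTB, beta-actin, was at 3504 and 3490 FPKM in Control, against 4635 and 4360 in siSIRT1. Its log2 fold change was 0.36 (SE 0.09). ACTG1, gamma-actin, was at 1705 and 1655 FPKM in Control, against 2047 and 2015 in siSIRT1, with a log2 fold change of 0.27 (SE 0.08). In both, each siSIRT1 library was above each Control library. ACTB held 67.3% and 67.8% of their joint level in Control, against 69.4% and 68.4% in siSIRT1. These calls were among the less stable ones: with median-of-ratios scaling the adjusted p was 0.136 for ACTB and 0.195 for ACTG1, and each was also lost without either Control library. ACTG2, enteric smooth muscle actin, was at 4.03 and 2.24 FPKM in Control, against 5.07 and 3.94 in siSIRT1, where the groups overlapped (log2 fold change 0.44, SE 0.21, adjusted p = 0.128). ACTA2, the vascular smooth muscle actin that marks stress fibers of myofibroblasts, was at 0.72 and 0.58 FPKM in Control, against 0.59 and 0.34 in siSIRT1, a level of 4 to 8 estimated reads over the 4 libraries.

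Of the 7 genes of myosin chains and of the light chain kinase, 4 were called higher, 0 lower and 3 not. The shares over all genes tested were 24.0% higher and 13.1% lower. MYL9, a regulatory light chain best known from smooth muscle and stress fibers, had the largest difference of the 53: 22.76 and 24.81 FPKM in Control against 149.2 and 136.4 in siSIRT1. That is 6.01-fold of the Control mean, and a log2 fold change of 2.54 (SE 0.07). MYL12B, a nonmuscle relative, was at 203.7 and 208.7 FPKM in Control, against 286.6 and 255.6 in siSIRT1 (log2 fold change 0.39, SE 0.07), and MYL12A, at 168.3 and 161.0 against 195.7 and 165.9, was not called (0.13, SE 0.08). MYL9 therefore made up 5.77% and 6.29% of the regulatory light chain level in Control, against 23.6% and 24.5% in siSIRT1. MYL6, the essential light chain, was at 351.7 and 354.4 FPKM in Control, against 527.2 and 494.5 in siSIRT1 (log2 fold change 0.53, SE 0.06). MYH9, the heavy chain of nonmuscle myosin IIA and 97.8% and 98.0% of the summed level of the 2 heavy chains in Control, was at 286.7 and 282.8 FPKM in Control, against 279.6 and 280.9 in siSIRT1, and was not called (-0.02, SE 0.06). MYH10, the heavy chain of myosin IIB, was low and called higher, at 6.32 and 5.85 against 8.59 and 9.50 FPKM (0.50, SE 0.10). MYLK, the kinase that phosphorylates the regulatory light chains, overlapped between the groups at 6.27 to 7.15 FPKM. Near-identical copies bear on this family: 8.36% of the 50-base words of MYL12A and 6.82% of those of MYL12B occurred in another gene, each mostly in the other, and 6.22% of those of MYL6 in MYL6B or elsewhere, against 4.54% for ACTB and none for MYL9.

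**Figure D3:**
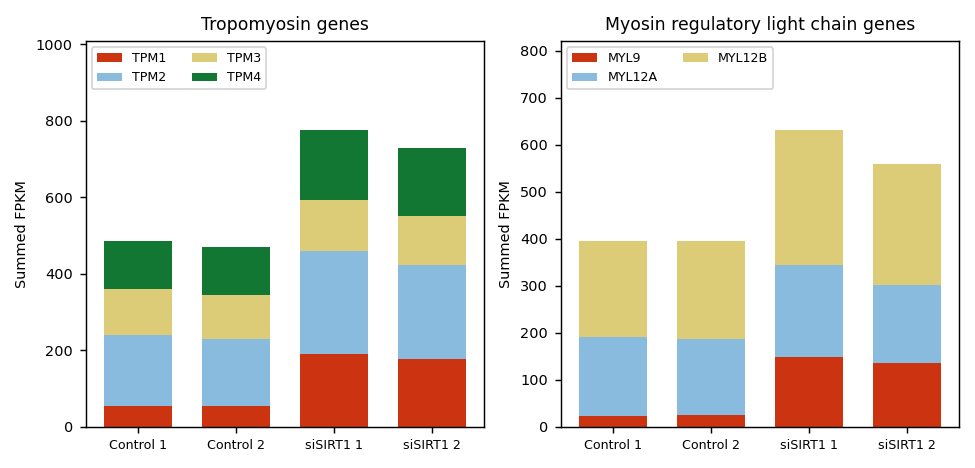
Summed FPKM of the 4 tropomyosin genes (left) and the 3 regulatory light chain genes of myosin (right) in each library, stacked by gene, with axes from 0. The red segments, TPM1 and MYL9, take 24.2% to 24.5% and 23.6% to 24.5% of their families in siSIRT1, against 11.3% to 11.4% and 5.77% to 6.29% in Control.

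The tropomyosins and calponins, which line the filament and set how myosin and other proteins reach it, had 7 of 9 tested members called higher and 0 lower, with 0 overlapping between the groups. Among all genes tested, 24.0% were called higher and 13.1% lower, and in 69.0% the groups did not overlap. TPM1 was at 54.76 and 53.53 FPKM in Control, against 190.3 and 176.2 in siSIRT1, 3.38-fold, with a log2 fold change of 1.74 (SE 0.06). TPM2 was at 186.5 and 175.2 FPKM in Control, against 270.4 and 245.8 in siSIRT1 (0.51, SE 0.07). TPM4 was at 125.3 and 123.4 against 182.5 and 176.6 FPKM (0.53, SE 0.06), and TPM3 at 118.8 and 117.1 against 133.4 and 129.5, just short of a call (0.16, SE 0.06, adjusted p = 0.0590). The order of the 4 levels changed with these differences. TPM1 was the lowest of the 4 in both Control libraries, and in siSIRT1 it lay between TPM3 and TPM2, beside TPM4. Its share of tropomyosin FPKM was 11.3% and 11.4% in Control, against 24.5% and 24.2% in siSIRT1, and that of TPM3 went from 24.5% and 25.0% to 17.2% and 17.8%. Isoforms of these genes are pooled in the tables, so muscle-type and cytoplasmic forms cannot be separated.

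TAGLN2, transgelin 2, an actin bundling relative of the calponins, was the most abundant member of this group. It was at 313.0 and 317.2 FPKM in Control, against 554.5 and 521.2 in siSIRT1 (0.77, SE 0.06). Its smooth muscle relative TAGLN, a classical SRF target, was at 4.17 and 3.96 against 5.24 and 4.48 FPKM and was not called (0.21, SE 0.12). CNN2, the main calponin of these cells, was at 84.79 and 80.54 FPKM in Control, against 127.1 and 120.0 in siSIRT1 (0.57, SE 0.06), CNN3 was at 12.49 and 13.52 against 17.58 and 16.67 (0.37, SE 0.08), and CNN1, the smooth muscle calponin, stayed at 0.29 to 1.44 FPKM with overlapping groups. CALD1, caldesmon, which blocks myosin from actin, was at 3.11 and 2.44 FPKM in Control, against 6.12 and 5.83 in siSIRT1 (0.89, SE 0.13).

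Crosslinkers and adhesion proteins went both ways: 5 of 17 were called higher, 3 lower and 9 not, and their median log2 fold change was 0.11. All genes tested had 24.0% called higher and 13.1% lower, with a median of 0.07. ZYX, zyxin, which gathers on strained stress fibers and focal adhesions, was at 65.46 and 63.14 FPKM in Control, against 112.7 and 101.4 in siSIRT1 (0.72, SE 0.07). FLNA, filamin A, which links filaments into networks, was at 288.7 and 286.2 against 368.0 and 372.0 FPKM (0.36, SE 0.06). FSCN1, the bundling protein of filopodia, was at 327.3 and 325.1 against 423.3 and 401.6 FPKM (0.34, SE 0.06). The LIM protein PDLIM1 (0.40, SE 0.06) and the membrane linker EZR, ezrin (0.24, SE 0.06), completed the 5.

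The 3 called lower were the FHL proteins and an alpha-actinin. FHL2, a LIM-only protein that binds SRF and MKL1 and shuttles between adhesions and the nucleus, was at 195.2 and 196.4 FPKM in Control, against 102.8 and 91.24 in siSIRT1, 49.6% of the Control mean (log2 fold change -1.01, SE 0.07). Its relative FHL1 was at 12.92 and 13.91 FPKM in Control, against 8.07 and 7.97 in siSIRT1 (-0.68, SE 0.09). Both had an exact CArG box in a promoter window, as ACTG1, CNN2 and TPM4 did. The number of windows differed, with 12 for FHL1, 4 for FHL2 and 3 for TPM4, against 1 each for ACTG1 and CNN2. Which start these cells use was not measured. ACTN4, alpha-actinin 4, the more abundant of the 2 crosslinking alpha-actinins, was at 1588 and 1546 FPKM in Control, against 1305 and 1226 in siSIRT1 (-0.31, SE 0.07), and ACTN1, at 145.7 and 147.2 against 135.1 and 136.8, was not called (-0.11, SE 0.06), though it was called lower with each of the 4 scalings between libraries. The pair summed to 1734 and 1693 FPKM in Control, against 1440 and 1362 in siSIRT1. The integrin linkers VCL, vinculin (0.16, SE 0.06, adjusted p = 0.0681), and TLN1, talin 1 (0.16, SE 0.06, adjusted p = 0.0614), were just outside the threshold, and LASP1, LIMA1, MSN, RDX, PDLIM5 and PDLIM7 had values between -0.04 and 0.18.

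SRF and its coactivator were both higher. SRF was at 15.98 and 16.86 FPKM in Control, against 21.42 and 21.18 in siSIRT1 (log2 fold change 0.36, SE 0.07). MKL1 was at 19.26 and 19.69 FPKM in Control, against 32.42 and 32.96 in siSIRT1 (0.72, SE 0.07). In each case the 2 libraries of a group lay within 1 FPKM of each other and the groups were apart. Activity of either protein was not measured. The call of SRF was lost without Control replicate 1 (adjusted p = 0.0731), and that of MKL1 held without each library in turn.

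Among the remaining regulators, CDC42EP3 had the largest difference. CDC42EP3, a CDC42 effector that binds septins and actin, was at 9.27 and 9.11 FPKM in Control, against 21.48 and 22.04 in siSIRT1 (1.16, SE 0.08). DSTN, destrin, which severs filaments, was at 131.6 and 135.2 against 185.2 and 182.5 FPKM (0.46, SE 0.06), and WDR1, the cofactor that speeds severing, at 84.57 and 83.01 against 117.4 and 113.9 (0.46, SE 0.06). Cofilin itself, CFL1, overlapped between the groups at 786.3 to 882.0 FPKM (-0.01, SE 0.08), and destrin made up 13.8% and 13.6% of the pair in Control, against 17.4% and 18.8% in siSIRT1.

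The monomer binding proteins TMSB10, TMSB4X and PFN1 were among the most abundant members. TMSB10, a thymosin beta that sequesters monomers, was at 1845 and 1716 FPKM in Control, against 2272 and 1971 in siSIRT1 and missed the threshold (0.25, SE 0.09, adjusted p = 0.0679). TMSB4X, thymosin beta 4, was at 721.9 and 671.2 against 976.3 and 869.9 FPKM and was called (0.40, SE 0.08). PFN1, profilin, which feeds monomers to growing ends, was at 854.5 and 827.4 against 1013 and 917.4 FPKM and was not called (0.20, SE 0.07, adjusted p = 0.0688). Among capping proteins, CAPG was called lower, at 226.2 and 214.8 against 198.6 and 176.2 FPKM (-0.24, SE 0.07), and CAPZB was not called (-0.01, SE 0.06).

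RHOA, a small GTPase that switches on stress fiber assembly, was at 138.9 and 139.0 FPKM in Control, against 175.5 and 167.4 in siSIRT1 (0.30, SE 0.06). RHOB (0.07, SE 0.07) and RHOC (0.03, SE 0.08) were not called. The formin DIAPH1, which elongates filaments downstream of RHOA, was at 40.08 and 40.09 against 45.60 and 48.56 FPKM (0.23, SE 0.06). ROCK1 (0.02, SE 0.13) and ROCK2 (0.21, SE 0.11), kinases that act on myosin and its phosphatase, were at 5.23 to 9.76 FPKM and were not called.

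Of the 11 members with an exact CArG box, 5 were called higher (SRF, ACTG1, CNN2, TPM4 and FLNA), 2 lower (FHL1 and FHL2) and 4 not (ACTG2, MYLK, ACTN1 and ROCK2), with a median log2 fold change of 0.27. The 38 tested members with a window but no exact box had 18 called higher and 2 lower, and a median of 0.21. ACTB, MYL9, TAGLN and FSCN1 had no window and are in neither set. Boxes outside the windows were not looked for, so the 2 sets do not part SRF targets from other genes. Over all genes tested, 147 had an exact box, of which 45 were called higher and 28 lower, with a median of 0.03. The 9837 genes with a window and no box had 2406 called higher and 1260 lower, with a median of 0.08. Shares over all 12191 genes tested, with or without a window, were 24.0% higher and 13.1% lower. With 1 mismatch allowed between the fixed ends, 17 of the 51 members had a match (33.3%), against 9.88% of all genes with a window. This larger share, too, came with the choice of the list.

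Libraries of the siSIRT1 group differed from each other with transcript length. For the 53 tested members, the log2 difference of siSIRT1 replicate 1 minus replicate 2 had a Spearman correlation of -0.82 and a Pearson's r of -0.72 with transcript length, across genes that share these libraries (Spearman -0.44 over 12090 genes tested that had a length). In the Control pair the members' Spearman correlation was -0.16. The difference exceeded 0.2 in size for 8 members: ACTG2, MYL12A, RHOC, PDLIM7 and TMSB10, with transcripts of 461 to 1712 bases, were higher in replicate 1, and RDX, PDLIM5 and ROCK1, of 4392 to 9446 bases, were higher in replicate 2. None of these 8 was called. With a smooth trend on length removed from every library, an alternative added after the values were seen, 28 members were called higher and 7 lower. Of all 12191 genes tested, 2288 were called higher and 2388 lower under this alternative, against 2930 and 1591 with FPKM as deposited. MYL9 was then at a log2 fold change of 2.44, TPM1 at 1.58, FHL2 at -1.14 and MKL1 at 0.68. Short abundant transcripts came out lower: MYL6 was at 0.30, MYL12B at 0.22, TMSB4X at 0.16, PDLIM1 at 0.26, ACTB at 0.24 and ACTG1 at 0.15, each still called, and PFN1 and TMSB10 were at -0.02 and -0.03. CFL1 (-0.17), CAPZB (-0.14) and ACTN1 (-0.17) were called lower under it. The log2 fold change between the groups had a Spearman correlation of -0.15 with length over the members and -0.18 over all genes.

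**Figure D4:**
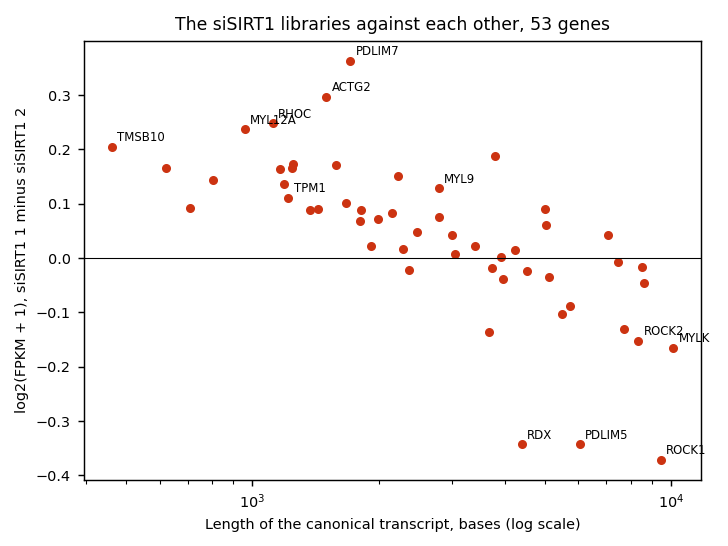
Log2(FPKM + 1) of siSIRT1 replicate 1 minus replicate 2 for each of the 53 tested members, against the length of the canonical transcript (log axis). Points fall from TMSB10 and PDLIM7 on the short side, above 0.2, to RDX, PDLIM5 and ROCK1 on the long side, below -0.3.

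Other genes of actin regulation, 110 in 7 lists put together by function, with earlier results of these data known, were followed beside the members. Of these, 109 were in the tables, 101 were tested, 28 were called higher and 20 lower by limma over all genes, and their median log2 fold change was 0.03. Over all genes tested, 24.0% were called higher and 13.1% lower, with a median of 0.07. Those shares are to be set beside the counts of each list below with FPKM as deposited, which are descriptions. With median-of-ratios scaling there were 24 higher and 26 lower in these lists, and 2043 higher and 2030 lower among all 12191 genes tested. Counts under another scaling are to be set beside those of all genes under the same scaling.

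The ARP2/3 complex and its activators, which start branched filaments, had 10 of 19 called higher and 0 lower, with a median of 0.31. With each of the 4 scalings between libraries these counts were 9 and 2. The same scalings called 2043 to 2302 of all genes tested higher and 1842 to 2030 lower. With FPKM as deposited those all-gene counts were 2930 and 1591. Within the list, a split made after its values were seen, 8 of the 9 genes of the ARP2/3 complex itself were called higher, and ACTR2 was not, at 114.0 and 119.4 FPKM in Control, against 107.8 and 127.1 in siSIRT1. ARPC4, a core subunit, was at 45.15 and 47.28 FPKM in Control, against 77.38 and 64.95 in siSIRT1 (0.61, SE 0.09, limma adjusted p = 0.000902). BRK1, the smallest subunit of the WAVE complex that activates ARP2/3, was at 31.58 and 29.76 against 56.94 and 47.21 FPKM (0.74, SE 0.09, limma adjusted p = 0.000474). WASF1, which carries the activating end of that complex, was at 14.72 and 12.54 against 20.09 and 22.40 FPKM (0.61, SE 0.10, limma adjusted p = 0.00180). The other 6 WAVE complex genes tested were not called, so 2 of 8 were.

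Formins and Ena/VASP proteins outside the member list, which build unbranched filaments, had 1 of 11 called higher and 4 lower, with a median of -0.16. The formin DIAPH1, a member and so not in this count, was called higher. With each of the 4 scalings these counts were 1 and 6, and without Control replicate 2 they were 0 and 1. INF2, a formin that also severs, was at 103.0 and 96.73 FPKM in Control, against 70.99 and 65.41 in siSIRT1 (-0.54, SE 0.07, limma adjusted p = 0.000454). DAAM1 was at 3.21 and 3.74 against 1.98 and 2.56 FPKM (-0.46, SE 0.14, limma adjusted p = 0.0347), and its call was lost without Control replicate 1, Control replicate 2 or siSIRT1 replicate 1. EVL was at 8.56 and 7.01 against 11.64 and 11.76 FPKM (0.54, SE 0.11, limma adjusted p = 0.00542), a call lost without Control replicate 2. Whether the formins differ from the ARP2/3 list was not tested.

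Capping, severing and monomer binding genes were split, with 5 of 21 called higher and 6 lower. LIMK2, a kinase that inactivates cofilin, was at 2.90 and 2.74 FPKM in Control, against 5.87 and 5.04 in siSIRT1 (0.75, SE 0.12, limma adjusted p = 0.00187). CAPZA2, an alpha subunit of the capping protein whose beta subunit CAPZB was not called, was at 11.32 and 11.44 against 17.13 and 17.59 FPKM (0.57, SE 0.08, limma adjusted p = 0.000898). CORO1C, a coronin, was at 24.77 and 25.46 against 15.88 and 16.06 FPKM (-0.62, SE 0.07, limma adjusted p = 0.000355).

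Other SRF cofactors did not follow MKL1. ELK3, a ternary complex factor that binds SRF and competes with the MKL proteins for it, was at 10.37 and 10.34 FPKM in Control, against 3.86 and 5.13 in siSIRT1 (-1.06, SE 0.13, limma adjusted p = 0.000449). MKL2 (MRTF-B), ELK1, ELK4 and SCAI overlapped between the groups. MKL2 was at 16.50 and 17.43 FPKM in Control, against 13.35 and 18.03 in siSIRT1 (-0.12, SE 0.13, limma adjusted p = 0.493). The counts in this list were 0 of 5 higher and 1 lower.

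Immediate SRF targets had 2 of 7 called higher and 2 lower. JUNB was at 34.95 and 38.02 FPKM in Control, against 67.68 and 56.77 in siSIRT1 (0.75, SE 0.09, limma adjusted p = 0.000414), and EGR1 was low and called higher (2.58 and 2.52 against 3.74 and 3.90 FPKM). CYR61, a matricellular protein driven by both SRF and YAP, was at 505.8 and 505.9 FPKM in Control, against 315.7 and 323.7 in siSIRT1 (-0.66, SE 0.06, limma adjusted p = 0.000100). Its relative CTGF was at 64.95 and 64.35 against 43.34 and 46.75 FPKM (-0.51, SE 0.06, limma adjusted p = 0.000504). EGR2, FOS and FOSB were too low to test.

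Focal adhesion genes had 6 of 17 called higher and 3 lower, with a median of 0.15. SYNPO, synaptopodin, which binds alpha-actinin on filaments, was at 23.10 and 22.31 FPKM in Control, against 49.85 and 48.61 in siSIRT1 (1.08, SE 0.06, limma adjusted p = 1.44e-05). TGFB1I1 (HIC-5), an adhesion adaptor, was at 6.99 and 8.98 against 15.67 and 13.53 FPKM (0.80, SE 0.13, limma adjusted p = 0.00157). TNS4, a tensin without the actin binding end, was at 1.71 and 1.81 against 0.37 and 0.82 FPKM (-0.81, SE 0.17, limma adjusted p = 0.00630).

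**Figure D5:**
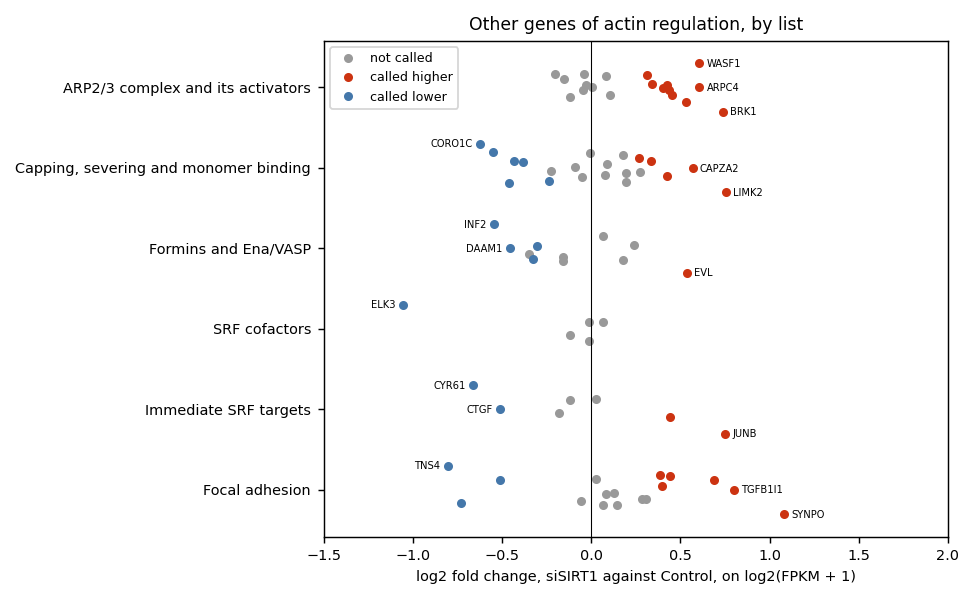
Log2 fold change of 80 tested genes outside the member list, siSIRT1 against Control on log2(FPKM + 1), 1 row for each of 6 lists, with vertical scatter only to part the points. Red and blue points were called higher and lower by limma over all genes, grey points were not called, and up to 3 called genes a list are named. The ARP2/3 row has 10 red points and no blue one, and the formin row 1 red and 4 blue.

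How firm the calls on the members were varied. Of the 30, 24 were called under every alternative that kept the 4 libraries and tested them (10 alternatives, and 9 for CALD1, which the filter at a mean of 5 FPKM left out), and ACTB, ACTG1, ACTN4, EZR, CAPG and DIAPH1 were not. Without a single library, 17 of the 30 were called each time, MYL9, TPM1, TAGLN2, ZYX, MKL1, CDC42EP3 and FHL2 among them. The other calls lost without Control replicate 1 were those of CNN3, FSCN1, SRF, TMSB4X and RHOA, and without Control replicate 2 those of MYH10, FLNA, FSCN1, TMSB4X and RHOA. Direction changed for 0 of the 30 under any alternative. Without Control replicate 1 the members called were 20, and without Control replicate 2 they were 19, against 35 and 33 without siSIRT1 replicate 1 or 2.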

How the data were processed

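RNA of PANC-1 cells was sequenced. The study's methods give Trizol for the total RNA of its quantitative PCR and a commercial provider for its sequencing after chromatin immunoprecipitation. They describe no RNA-seq protocol. The authors deposited FPKM per gene for each of the 4 libraries, rounded to 2 decimals. The submitters' processing notes name Bowtie2, HISAT and RSEM without versions or roles. The genome build, the use of strand and the assignment of reads shared by near-identical copies are not given in the sources used here. Isoforms are pooled. FPKM divides by library total and transcript length, so abundant genes that change shift all others, and no scaling between libraries is stated.

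The 12191 of 16878 genes whose mean reached 1 FPKM were fitted on log2(FPKM + 1) with limma 3.58.1 in R 4.3.3 (lmFit, and eBayes with its trend option), 2 Control against 2 siSIRT1 libraries. P-values are two-sided and Benjamini-Hochberg adjusted over all genes tested, with a threshold of 0.05. The pseudocount understates changes of low genes. The fit was first run on simulated data with few changed genes, independent noise and no trend on transcript length. That setting is simpler than these libraries, so the simulation lends the calls no support. Depth was estimated from 1-read steps in 79 to 107 genes per library (length offset 80 bases), and estimated reads cover counting error only. Transcript lengths and shared 50-base words came from canonical transcripts of GENCODE release 44, and promoter windows from RefSeq, GRCh38.p14. Symbols turned into dates (26 of them) belonged to no gene named here.

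The member list and the other gene lists were chosen with earlier results of these data known. Named with every library were SIRT1, the actins, SRF, MKL1, members called with an absolute log2 fold change of at least 0.5, the 3 most abundant members of each group, and up to 3 called genes with the largest change per other list. One of the 7 other lists counts in the totals and is not reported here on its own. Other genes, such as ACTR2, EGR1 and MKL2, were named after their values were seen. Alternatives were a pseudocount of 0.1, no filter or a filter at a mean of 5 FPKM, quantile normalization, median-of-ratios, upper-quartile and equal-sum scaling, a replicate block, eBayes with no trend, removal of a lowess trend (span 0.3) on transcript length, which was added after the values were seen, and leaving out each library.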

Additional observations from a re-analysis of the deposited data

How the results depend on the processing

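With all 4 libraries, every alternative kept SIRT1 called lower, and the counts of genes called stayed within 1.5 times those reported: 3531 to 5393 of all genes (4521 reported), 26 to 36 members (30 reported) and 40 to 54 genes of the other lists (48 reported). Leaving out 1 library gave 2691 to 4608 calls over all genes, 19 to 35 members and 34 to 54 genes of the other lists. A lone library is then assumed to vary like the other group. The low ends came without Control replicate 1 (2744 genes) or Control replicate 2 (2691). With 1 mismatch, 17 members in place of 11 had a CArG box.

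The titles number the libraries 1 and 2 in both groups. Deviations of same-numbered libraries correlated at 0.123, and nothing states a shared day or culture, so whether the numbers pair the samples is not known. The main fit did not pair them. The replicate block called 5393 genes, 36 members (32 higher, 4 lower) and 54 genes of the other lists.

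The share of calls that were higher moved with scaling, over all genes from 64.8% to 53.3% (quantile), 50.2% (median of ratios), 52.1% (upper quartile), 55.6% (equal sums) and 48.9% (length trend removed). In the other lists it went from 58.3% to 48.1%, 48.0%, 48.1%, 50% and 52%.

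Reversed signs occurred among members not called, and the cause was not tested. Quantile normalization gave LIMA1 -0.0154, RHOC -0.0365 and ROCK1 -0.0367. Median-of-ratios scaling gave LIMA1 -0.0119, RHOB -0.00682, RHOC -0.0537 and ROCK1 -0.0603, and upper-quartile scaling gave -0.00539, -0.000500, -0.0471 and -0.0542. Equal sums gave RHOC -0.0320 and ROCK1 -0.0401. Removing the length trend gave MYL12A -0.0652, PFN1 -0.0188, TMSB10 -0.0348, RHOB -0.0370 and RHOC -0.144. Leaving out 1 library gave a range that crossed 0 for MYLK (-0.148 to 0.0170), PDLIM7 (-0.188 to 0.175), RDX (-0.0645 to 0.278), CFL1 (-0.0956 to 0.0699), CAPZB (-0.0660 to 0.0361), RHOC (-0.0945 to 0.154) and ROCK1 (-0.170 to 0.201). At these depths low members such as ACTA2 and CNN1 rest on few reads.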
